A study of Mus musculus with 6 samples.

Results

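The genes described here encode 8 components of the integrated stress response and the unfolded protein response, *Atf4*, *Atf3*, *Ddit3*, *Trib3*, *Asns*, *Xbp1*, *Herpud1* and *Gadd45a*, and they were chosen by name. All 8 were measured, on 11 probe sets that carry the gene's symbol alone in the platform annotation, of 12422 probe sets compared. The Liver Insulin Receptor Knockout (LIRKO) mice had the genotype IR flox/flox albumin:CRE +, and the Flox controls were their littermates with IR flox/flox albumin:CRE -, so that the insulin receptor gene is floxed in both groups. The albumin promoter drives Cre in hepatocytes, and other cells of the liver keep the receptor. Livers came from non-fasted male mice of a mixed genetic background, aged 2 to 3 months and fed chow, and each of the 3 Flox and 3 LIRKO Affymetrix MG-U74A-v2 arrays held RNA pooled from 2 to 3 mice. The spread between arrays is therefore a spread between pools. Values are log2 levels after the authors' robust multichip averaging (RMA).

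The integrated stress response starts with kinases that sense amino acid shortage, heme shortage, viral RNA or misfolded protein in the endoplasmic reticulum (ER) and phosphorylate the translation factor eIF2α. General translation slows, whereas that of the transcription factor ATF4 increases, and ATF4 induces genes of amino acid supply and further stress factors such as CHOP, the product of *Ddit3*. The unfolded protein response joins this branch with further ones, in which IRE1 splices the mRNA of XBP1 and ATF6 is cleaved in the Golgi, and both factors induce chaperones and degradation enzymes of the ER. The liver secretes most plasma proteins and relies on this system.

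The 4 sequences below are shown because they hold the element through which ATF4 and its partners act, the C/EBP-ATF response element, searched as TGATGNAA on both strands of the RefSeq promoter windows (GRCm38.p6, 250 bases before to 50 bases after each start). All 8 genes had 1 window each, and 4 of the 8 held a match, against 4.51% of 27025 genes with a window. Because the genes were chosen by name as members of these pathways, the comparison of shares is not a test. Sequences run 5′ to 3′ along the gene's strand, with the matched element in capitals. They lie at chr1:191183425-191183454 (minus strand) for *Atf3*, chr2:152344028-152344057 (minus) for *Trib3*, chr6:7693214-7693243 (minus) for *Asns* and chr8:94386306-94386335 (plus) for *Herpud1*.
Atf3: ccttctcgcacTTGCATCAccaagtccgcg
Trib3: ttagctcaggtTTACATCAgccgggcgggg
Asns: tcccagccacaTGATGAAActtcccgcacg
Herpud1: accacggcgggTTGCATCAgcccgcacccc
The element reads on the gene's strand in *Asns* and on the opposite strand in the other 3. The ER stress response element, searched as CCAAT and CCACG with 9 bases between them on both strands, matched in none of the 8 windows, and 0.137% of all genes hold it. No 2 matches overlapped. A match of letters is a description and not a site of binding.

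The 3 LIRKO arrays were not alike, which touches each result below. Relative to Flox, the median difference of the brightest probe sets, when all are put in 10 groups of equal size by mean Flox level, was -1.09 for LIRKO 2 and -0.89 for LIRKO 3 but -0.01 for LIRKO 1. In the dimmest group it was 0.23, 0.15 and -0.03. For the members and most other named genes, differences are therefore given beside the median of the probe sets in the same level group. That median is for single arrays or for the mean of the 3 LIRKO arrays. It is not known here if the 6 arrays went through RMA as 1 set, and the values of LIRKO 2 and LIRKO 3 had a narrower spread (SD over all probe sets 1.73 and 1.78) than those of the other arrays (1.96 to 2.01). The targeted gene, *Insr*, read 5.45, 5.22 and 5.38 in Flox and 5.37, 5.99 and 6.06 on LIRKO 1, LIRKO 2 and LIRKO 3 (adjusted p = 0.245), and whether its probe set lies in the deleted part is not known here, so that it does not check the genotype. Hepatocyte markers (10 probe sets of 9 genes) had a median Flox level of 12.24, and a median log2 fold change of -0.50 beside one of -0.65 for their level groups. Their summed level on the log2 scale was 16.00 to 16.08 in Flox and 16.12, 15.44 and 15.39 on LIRKO 1, LIRKO 2 and LIRKO 3. That of Kupffer cell and macrophage markers (16 probe sets of 11 genes) was 11.43 to 12.21 in Flox and 11.38 to 12.28 in LIRKO, that of endothelial cells (7 probe sets) 10.28 to 10.91 and 10.68 to 10.88, and that of stellate cells and fibroblasts (11 probe sets) 10.87 to 11.34 and 11.27 to 11.40. Lymphocyte and leukocyte markers (11 probe sets) summed to 9.60 to 9.66 in Flox, 9.65 on LIRKO 1 and 9.95 and 9.91 on LIRKO 2 and LIRKO 3. The part of these markers in the results was not tested. In whole liver, fewer cells of a type, less RNA per cell and the shift of bright probe sets on LIRKO 2 and LIRKO 3 cannot be told apart.

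None of the 11 probe sets passed an adjusted p of 0.05 in limma, in a fit in which 0.0725% of all probe sets passed as higher in LIRKO and 0.0564% as lower. At an unadjusted p under 0.05 there were 4 of the 11, those of *Ddit3*, *Trib3*, *Xbp1* and *Gadd45a*, against 20.95% of all probe sets. The 3 LIRKO arrays lay above the 3 Flox arrays at 2 of the 11, *Trib3* and 1 probe set of *Atf3*, against 9.84% of all probe sets, and below them at 1, *Gadd45a*, against 14.9%. With 3 arrays a group, an exact permutation test of a single probe set cannot go below p = 0.10. The median log2 fold change of the 11 was 0.11, against 0.01 for all probe sets. On LIRKO 1 the median difference from Flox was -0.07, against -0.02.

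**Figure D1:**
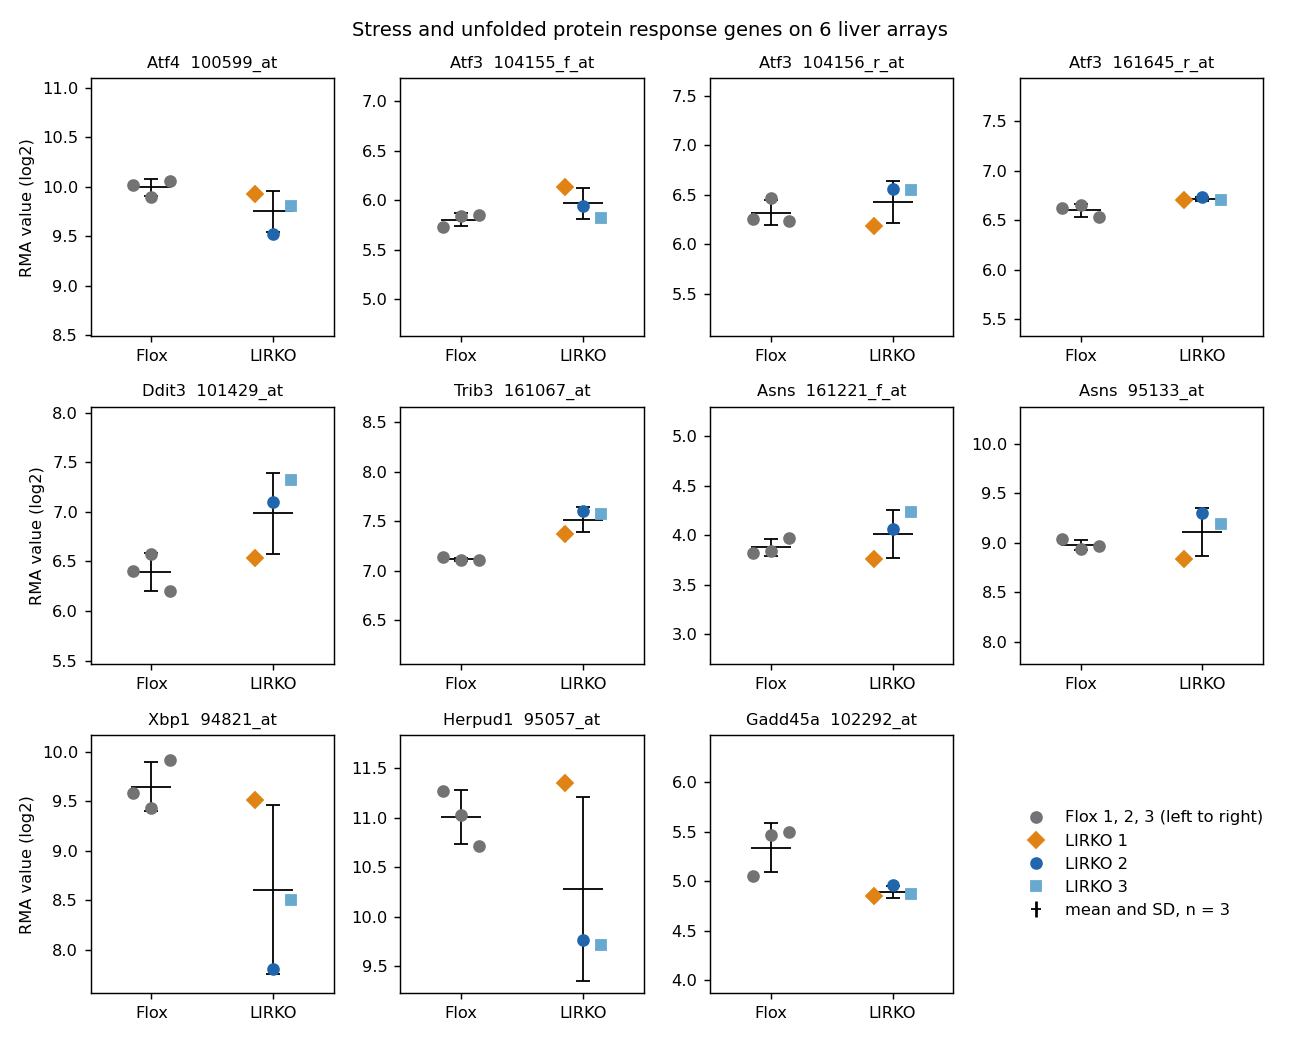
Deposited RMA value (log2, vertical axis) of the 11 probe sets on each array, Flox left and LIRKO right in each panel; black lines are the mean and SD of 3 arrays, and all panels span the same number of log2 units. *Trib3* lies higher and *Gadd45a* lower on all 3 LIRKO arrays, whereas *Xbp1* and *Herpud1* are low on LIRKO 2 and LIRKO 3 and not on LIRKO 1.

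*Atf4*, the transcription factor at the centre of the integrated stress response, is controlled largely through its translation, which these arrays do not measure. Its probe set 100599_at read 10.02, 9.90 and 10.06 in Flox and 9.92, 9.52 and 9.80 on LIRKO 1, LIRKO 2 and LIRKO 3. LIRKO 1 lay within the Flox range, and the other LIRKO arrays were below it. The log2 fold change was -0.24 (standard error 0.14, 95% interval -0.58 to 0.09, adjusted p = 0.312). The direction turned with the scaling, to 0.31 after cyclic loess and to 0.21 when quantile normalization was renewed. The differences of -0.47 on LIRKO 2 and -0.19 on LIRKO 3 were smaller in size than the medians of -1.09 and -0.89 of its level group.

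*Ddit3*, which encodes CHOP, a factor linked with cell death under lasting ER stress, read 6.40, 6.58 and 6.20 in Flox and 6.54, 7.10 and 7.32 on LIRKO 1, LIRKO 2 and LIRKO 3. LIRKO 1 lay within the Flox range and the other pools lay above it, so that the groups overlapped. The log2 fold change was 0.59, or 1.51-fold (standard error 0.22, 95% interval 0.07 to 1.12, adjusted p = 0.237). Probe sets of the same level group had medians of 0.11 on LIRKO 2 and 0.08 on LIRKO 3, where *Ddit3* differed from Flox by 0.70 and 0.93, at percentiles 88.2 and 95.2 of that group.

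*Trib3*, a pseudokinase gene that ATF4 and CHOP induce and whose protein binds the insulin signalling kinase Akt, had the smallest p of the 11 probe sets. It read 7.14, 7.11 and 7.11 in Flox and 7.37, 7.61 and 7.58 on LIRKO 1, LIRKO 2 and LIRKO 3. All LIRKO arrays lay above all Flox arrays, LIRKO 1 included. Flox averaged 7.12 ± 0.0175 (SD, n = 3) and LIRKO 7.52 ± 0.128 (SD, n = 3). LIRKO was 0.40 higher on the log2 scale, or 1.32-fold (standard error 0.12, 95% interval 0.12 to 0.68, adjusted p = 0.237). On LIRKO 1, where the median of its level group was -0.00, the difference was 0.26 (percentile 91.1 of the group). On LIRKO 2 and LIRKO 3 the differences were 0.49 and 0.46, beside medians of -0.07 and -0.05 (percentiles 84.6 and 86.2). Its promoter window is one of those that hold the ATF4 element, at position 14 after the start.

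*Asns*, asparagine synthetase, is the textbook target of ATF4 in amino acid shortage. Its probe set 95133_at read 9.04, 8.94 and 8.97 in Flox and 8.84, 9.30 and 9.19 on LIRKO 1, LIRKO 2 and LIRKO 3. LIRKO 1 was the lowest of the 6 arrays and LIRKO 2 the highest, and the log2 fold change was 0.13 (standard error 0.15, 95% interval -0.22 to 0.48, adjusted p = 0.587). It was 0.52 after cyclic loess (adjusted p = 0.275). On LIRKO 2 and LIRKO 3 the probe set lay 0.32 and 0.21 above Flox, while the medians of its level group were -0.47 and -0.38. The other probe set, 161221_f_at, read 3.82 to 3.98 in Flox and 3.76 to 4.24 in LIRKO, with a log2 fold change of 0.14 (adjusted p = 0.568). That value was 0.03 after cyclic loess, after renewed quantile normalization and without LIRKO 3. It lies in the dimmest level group, which had a median of 0.12, and the f in its name marks probes that related sequences may share.

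*Atf3*, a transcription factor of the same family that many kinds of cell stress induce, was read by 3 probe sets that did not order the arrays alike. On 104155_f_at the values were 5.73, 5.84 and 5.84 in Flox and 6.13, 5.94 and 5.82 on LIRKO 1, LIRKO 2 and LIRKO 3. On 104156_r_at they were 6.26, 6.47 and 6.24 in Flox and 6.19, 6.56 and 6.54 in LIRKO. LIRKO 1 was the highest array on the first and the lowest on the second. On 161645_r_at the values were 6.62, 6.65 and 6.53 in Flox and 6.71, 6.73 and 6.70 in LIRKO, with no overlap. The log2 fold changes of the 3 probe sets were 0.16, 0.11 and 0.11 (adjusted p = 0.423, 0.644 and 0.511), beside medians of 0.08, 0.07 and 0.07 for their level groups. The r in a name marks a probe set for which not all rules of probe choice could be met.

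*Xbp1* encodes the transcription factor of the IRE1 branch, and whether its probe set tells spliced from unspliced mRNA is not known here. It read 9.58, 9.43 and 9.92 in Flox and 9.51, 7.81 and 8.50 on LIRKO 1, LIRKO 2 and LIRKO 3. LIRKO 1 lay within the Flox range, whereas LIRKO 2 and LIRKO 3 lay below every other array. Flox averaged 9.64 ± 0.248 (SD, n = 3) and LIRKO 8.61 ± 0.854 (SD, n = 3). The log2 fold change was -1.04, or 2.05-fold lower (standard error 0.41, 95% interval -2.001 to -0.08, adjusted p = 0.237). The differences of -1.83 on LIRKO 2 and -1.14 on LIRKO 3 stand beside medians of -1.09 and -0.89 for its level group, at percentiles 15.8 and 36.4 of that group. After cyclic loess the log2 fold change was -0.63 (adjusted p = 0.217).

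*Herpud1* encodes a membrane protein of the ER that takes part in the degradation of misfolded proteins and is induced in ER stress. It read 11.27, 11.03 and 10.72 in Flox and 11.35, 9.77 and 9.72 on LIRKO 1, LIRKO 2 and LIRKO 3. LIRKO 1 was the highest of the 6 arrays and the other LIRKO arrays were the lowest. The log2 fold change was -0.73 (standard error 0.44, 95% interval -1.77 to 0.31, adjusted p = 0.324), and after cyclic loess it was -0.05. Differences of -1.24 and -1.29 on LIRKO 2 and LIRKO 3 lay near the medians of the brightest level group, to which the probe set belongs, at percentiles 40.9 and 29.0 of it.

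*Gadd45a*, a growth arrest and DNA damage gene that p53 and ATF4 can induce, was the 1 member with all LIRKO arrays below all Flox arrays. It read 5.06, 5.46 and 5.50 in Flox and 4.85, 4.96 and 4.88 on LIRKO 1, LIRKO 2 and LIRKO 3. The LIRKO arrays lay close together, and Flox 1 was the Flox array nearest to them. Flox averaged 5.34 ± 0.246 (SD, n = 3) and LIRKO 4.89 ± 0.0583 (SD, n = 3). The Flox mean lay at percentile 26.55 of all probe sets, and the filter on dim probe sets took *Gadd45a* out. The log2 fold change was -0.45, or 1.36-fold lower (standard error 0.15, 95% interval -0.80 to -0.09, adjusted p = 0.237). Its level group had medians of -0.03, 0.18 and 0.12 on LIRKO 1, LIRKO 2 and LIRKO 3, where *Gadd45a* differed by -0.49, -0.38 and -0.46. Among the 1242 probe sets of that group, *Gadd45a* lay at percentile 0.24 on LIRKO 1 and at 7.0 and 6.0 on LIRKO 2 and LIRKO 3.

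**Figure D2:**
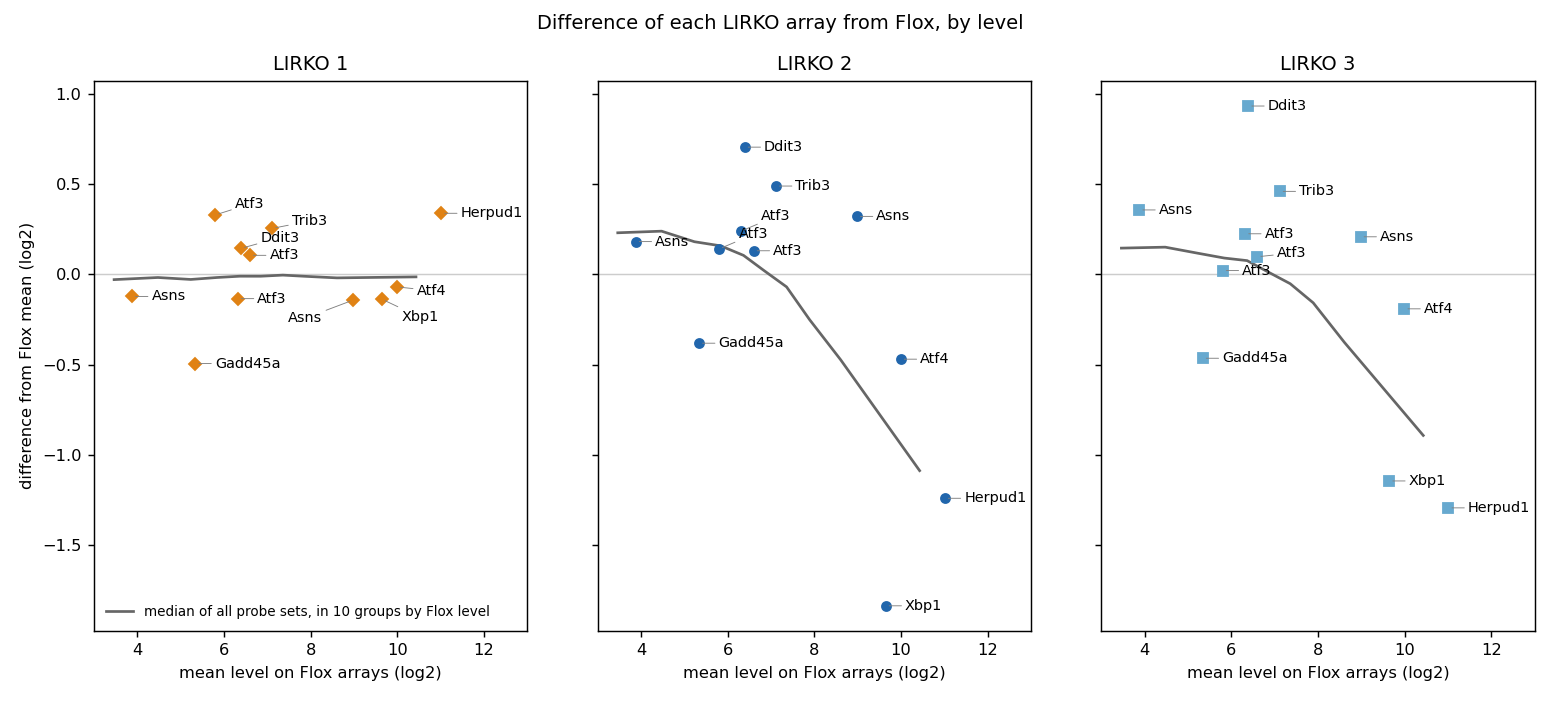
Difference of each member probe set from the Flox mean (log2, vertical axis) against its mean Flox level (log2, horizontal axis) on LIRKO 1, LIRKO 2 and LIRKO 3; the grey line is the median of all probe sets in 10 groups by Flox level. On LIRKO 2 and LIRKO 3 the line drops to -1.09 and -0.89, *Xbp1* and *Herpud1* lie low with it, and *Ddit3*, *Trib3* and *Asns* 95133_at lie above it.

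LIRKO 1 alone against the 3 Flox arrays, with the spread taken from Flox, gave no call among the 11 probe sets, where 0.443% of all probe sets passed as higher and 0.282% as lower. There, 2 of the 11 had an unadjusted p under 0.05, against 9.68% of all probe sets. The differences largest in size were -0.49 for *Gadd45a* (adjusted p = 0.398), 0.34 for *Herpud1* (adjusted p = 0.668) and 0.33 for *Atf3* 104155_f_at (adjusted p = 0.406). Without LIRKO 1, *Ddit3* (0.82, adjusted p = 0.00125) and *Trib3* (0.47, adjusted p = 0.00479) passed as higher, as did 22.4% of all probe sets. *Xbp1* (-1.49, adjusted p = 0.000391), *Herpud1* (-1.27, adjusted p = 0.00018) and *Gadd45a* (-0.42, adjusted p = 0.041) then passed as lower, as did 26.7%. Shares of 2 and 3 among 11 lie near that background.

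Probe sets most like that of *Atf4* over the 6 arrays were sought by Pearson correlation among 10832 other probe sets with 1 gene symbol. The highest were those of *Cfl2*, *Srpr*, *Pigq*, *Bcl2l13* and *Dcun1d5*, at 0.997 to 0.992, and 928 probe sets exceeded 0.9. For *Xbp1* they were *Hacd3*, *Atp6v1a*, *Smad1*, *Actn4* and *Scp2*, at 0.999 to 0.996, with 1947 above 0.9. These points share 6 arrays and the shift of LIRKO 2 and LIRKO 3, and all 10 probe sets had negative log2 fold changes.

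Other genes of these pathways were read from 5 lists, and no probe set of any list passed an adjusted p of 0.05 in limma over all 3 LIRKO arrays. Of the sensors and regulators of eIF2α and the unfolded protein response (25 probe sets of 17 genes), LIRKO lay above Flox at 3 (12%, against 9.84% of all probe sets) and below it at 2 (8%, against 14.9%), and the median log2 fold change was -0.11. *Ppp1r15a*, the stress-induced phosphatase subunit GADD34 that dephosphorylates eIF2α, read 7.37, 7.43 and 7.29 in Flox and 7.61, 7.97 and 7.61 in LIRKO, 0.37 higher on the log2 scale (adjusted p = 0.237). *Eif2ak1*, the heme-sensing eIF2α kinase, read 8.88, 8.87 and 8.89 in Flox and 8.82, 8.03 and 8.13 in LIRKO, and *Mbtps1*, the protease that first cuts ATF6, had a log2 fold change of -0.67, with -0.09 on LIRKO 1. The genes of smallest p in this list also hold *Eif2b5*, a subunit of the exchange factor that phosphorylated eIF2α inhibits, at -0.83 and -0.58 on 2 probe sets (adjusted p = 0.237 and 0.239). On LIRKO 1 these probe sets differed from Flox by only -0.07 and -0.003, and the groups overlapped on both. The medians of the level groups were -0.03 for *Ppp1r15a* and *Eif2b5* and -0.28 for *Eif2ak1* and *Mbtps1*.

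Target genes of ATF4 and CHOP (46 probe sets of 35 genes) had a median log2 fold change of 0.04, and the LIRKO arrays lay above Flox at 8 (17.4%, against 9.84% of all probe sets) and below at 4 (8.70%, against 14.9%). Aminoacyl-tRNA synthetase genes were 3 of the 4 with the smallest p. *Mars1*, for methionine, read 8.37, 8.06 and 8.06 in Flox and 7.75, 7.21 and 6.83 in LIRKO. *Aars*, for alanine, read 9.29, 9.13 and 8.94 in Flox and 8.77, 8.31 and 8.03 in LIRKO, and *Gars*, for glycine, 7.60, 7.22 and 7.39 in Flox and 7.12, 6.27 and 5.87 in LIRKO. In these 3 all LIRKO arrays, LIRKO 1 included, were below all Flox arrays, with log2 fold changes of -0.90, -0.75 and -0.98 (adjusted p = 0.237 for each), beside level group medians of -0.13, -0.28 and -0.03. The other synthetase genes of the list did not all share that sign, and they are given here after their values were seen. *Nars* and *Eprs* had log2 fold changes of -0.56 and -0.50 and *Sars* one of -0.08. *Wars*, for tryptophan, had 0.33 on 98605_at, where all LIRKO arrays lay above Flox, 0.34 on 161337_f_at and -0.32 on 98606_s_at. *Phgdh*, the first enzyme of serine synthesis, had one of 0.44 on 162168_r_at (adjusted p = 0.237), beside a level group median of 0.13. *Slc38a2*, an amino acid transporter, was chosen after its values were seen. On 94433_at it read 8.52, 7.64 and 8.57 in Flox and 9.51, 8.72 and 9.16 in LIRKO. Log2 fold changes of its 4 probe sets were 0.89, 0.86, 0.86 and -0.07, and the groups did not overlap on the first 3. All but 94433_at were dim, with Flox means of 4.66 on 161954_r_at, 3.37 on 162233_r_at and 2.885 on 162135_r_at. On 161954_r_at and 162233_r_at LIRKO 1 lay 0.16 above Flox, against 1.08 to 1.34 on LIRKO 2 and LIRKO 3. The level group medians were -0.28 for 94433_at and 0.12 to 0.13 for the others. *Bnip3*, a mitophagy receptor gene, was chosen for its difference from Flox of 0.90 on LIRKO 1 alone. It differed by -0.27 on LIRKO 2 and by 0.40 on LIRKO 3. Its log2 fold change over the 3 arrays was 0.35 (adjusted p = 0.454), beside a level group median of -0.13.

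ER chaperones, folding enzymes and genes of ER-associated degradation (60 probe sets of 41 genes), many of them targets of XBP1 and ATF6, had the lowest median of the 5 lists, -0.39. All LIRKO arrays lay below all Flox arrays at 21 of the 60, or 35.0%, against 14.9% of all probe sets. They lay above them at 2, or 3.33%, against 9.84%. The shares over all probe sets are not matched for level, and this list had a median Flox level of 7.9. LIRKO 1 had a median difference from Flox of -0.07, LIRKO 2 one of -0.75 and LIRKO 3 one of -0.58. The median over the level groups to which these probe sets belong was -0.13 for the mean of the 3 arrays. *Sel1l*, of the ubiquitin ligase complex that removes misfolded proteins, read 8.36, 8.30 and 8.37 in Flox and 7.86, 7.16 and 7.48 in LIRKO on 92870_at. Its log2 fold change was -0.84 (standard error 0.19, adjusted p = 0.237), against -0.34 on 92871_at, where LIRKO 1 lay above Flox. *Dnajb11*, a co-chaperone gene, had a log2 fold change of -1.18, *Ssr2*, of the translocon-associated complex, one of -1.01, and *Sec23b*, of the vesicle coat that leaves the ER, ones of -0.93 on 98944_at and 0.91 on 161939_f_at. The level group medians were -0.28 for *Sel1l* 92870_at, *Ssr2* and *Sec23b* 98944_at, 0.01 for *Dnajb11* and -0.03 for *Sec23b* 161939_f_at. *Hspa5*, the main chaperone of the ER, was chosen for its role after its values were seen. It read 11.25, 10.69 and 10.81 in Flox and 10.69, 8.98 and 9.03 in LIRKO, a log2 fold change of -1.35 (adjusted p = 0.237), with -0.23 on LIRKO 1, beside a level group median of -0.65. *Dnajb9*, an XBP1 target also named for its role, had log2 fold changes of -0.24 and 0.32 on 2 probe sets, beside level group medians of -0.13 and -0.03, and differences of 0.50 and 0.56 on LIRKO 1.

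**Figure D3:**
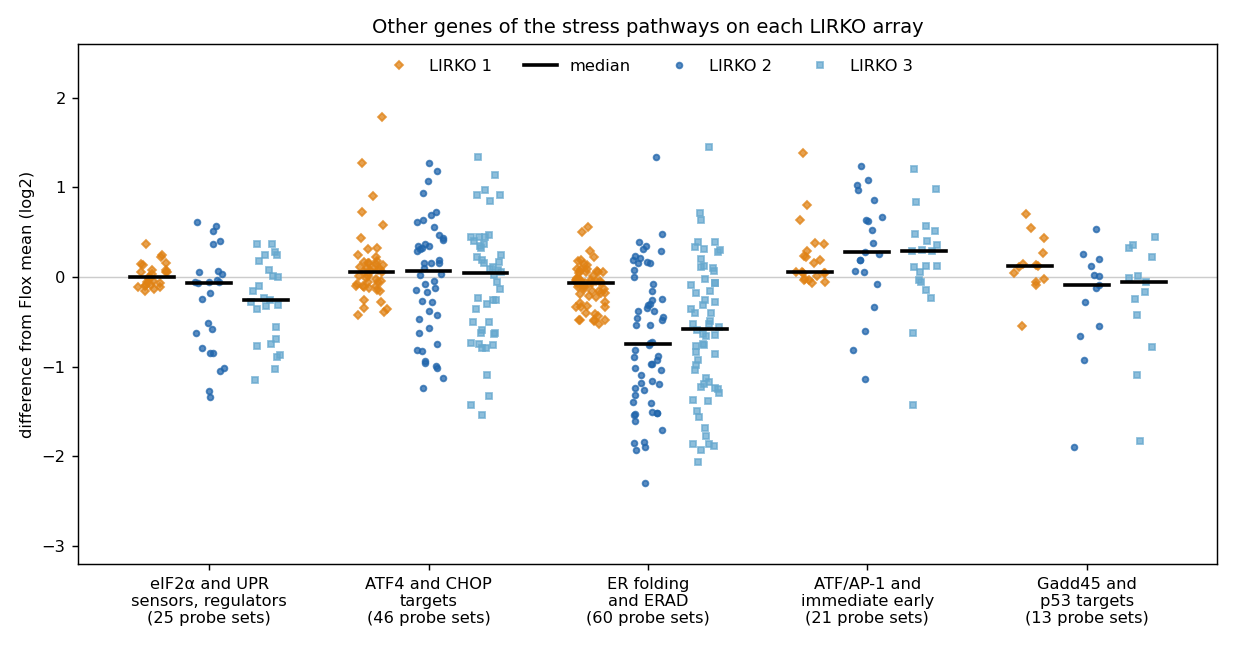
Difference from the Flox mean (log2, vertical axis) of the probe sets in 5 lists on LIRKO 1, LIRKO 2 and LIRKO 3; black bars are medians. The medians of the ER folding and degradation list lie at -0.07, -0.75 and -0.58, and those of the ATF4 and CHOP targets at 0.06, 0.07 and 0.04.

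*Atf3* belongs with the ATF and AP-1 factors, which were listed with other immediate early genes (21 probe sets of 17 genes). Their median log2 fold change was 0.20, and the LIRKO arrays lay above all Flox arrays at 7 of the 21, or 33.3%, against 9.84% of all probe sets, and below at none. *Maff*, a small Maf factor, had the smallest p of these lists and read 6.33, 6.68 and 6.28 in Flox and 7.24, 7.40 and 7.41 in LIRKO, higher in LIRKO by 0.92 in log2 units (adjusted p = 0.158, standard error 0.15). *Fos* read 3.78, 4.29 and 4.16 in Flox and 5.46, 5.32 and 4.65 in LIRKO on 160901_at, 1.06 higher on the log2 scale (adjusted p = 0.237), and on LIRKO 1 alone this probe set passed as higher, at 1.38 (adjusted p = 0.0149). The other probe set of *Fos*, 161716_at, had a log2 fold change of 0.31 with overlapping groups, and a difference from Flox of only 0.006 on LIRKO 1. Both probe sets were dim, with Flox means of 4.08 on 160901_at and 4.78 on 161716_at. *Ier3* and *Btg2*, both early response genes, had log2 fold changes of 0.84 and 0.46, with no overlap between the groups. The level group medians were 0.07 for *Maff*, 0.13 for *Fos*, 0.08 for *Ier3* and -0.28 for *Btg2*.

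In the list of the Gadd45 family and p53 targets (13 probe sets of 11 genes), the median log2 fold change was 0.00, and the LIRKO arrays lay above Flox at 3 (23.1%, against 9.84% of all probe sets) and below at 1 (7.69%, against 14.9%). *Gadd45b* read 7.32, 7.37 and 7.34 in Flox and 7.61, 7.88 and 7.66 in LIRKO on 102779_at, a log2 fold change of 0.37, and its probe set 161666_f_at had 0.42 (adjusted p = 0.237 for both). LIRKO lay above Flox on both, opposite in sign to *Gadd45a*. *Perp*, a p53 target of cell adhesion, read 9.23, 8.99 and 9.26 in Flox and 8.61, 7.26 and 7.33 in LIRKO, a log2 fold change of -1.42 (adjusted p = 0.237), beside a level group median of -0.65. *Ei24* and *Fas*, the other genes of smallest p, had log2 fold changes of -0.59 and -0.34 with overlapping groups, beside level group medians of -0.65 and 0.13. Those of *Gadd45b* were -0.03 on 102779_at and 0.10 on 161666_f_at.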

How the data were processed

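Pooled liver RNA of 3 Flox and 3 LIRKO samples was hybridised to Affymetrix MG-U74A-v2 arrays. The deposited values are log2 levels of probe sets, which the authors made by RMA with the affy and limma packages. Package versions, and whether all 6 arrays were normalized together, are not known here. Values were used without further scaling. After 66 array controls were left out, 12422 probe sets were compared by limma 3.58.1 (lmFit, eBayes) in R 4.3.3, two-sided, at a Benjamini-Hochberg adjusted p of 0.05. Arrays give no counts, and their number limits the precision. The p-values measure the spread between pools.

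Gene symbols came from the platform annotation, where 10833 probe sets had 1 symbol, and 10817 of them matched the RefSeq gene table through their Entrez IDs. The genes and lists were chosen with earlier results of these data known. Named from each list were probe sets past the threshold and the 4 genes of smallest p, and exceptions are marked. Alternatives covered 3 further normalizations, removal of probe sets under percentile 40 of mean level, another variance model, blocking by replicate number, and left-out arrays. Another was the unequal-variance t-test, which the study's methods give for mouse studies in general. For the arrays, those methods name limma with Benjamini-Hochberg correction. The fit was tested on simulated data with independent noise. These had no shift like that of LIRKO 2 and LIRKO 3, so that the test does not cover it. Python 3.11.15, numpy 2.4.6, pandas 2.3.3 and matplotlib 3.10.9 were used.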

Additional observations from a re-analysis of the deposited data

How the results depend on the processing

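The count of 0 among the 11 member probe sets was 0 under every alternative except that without LIRKO 1, where it was 5, so that leaving out 1 array gave 0 to 5. The unequal-variance t-test gave 1 of the 11 at an unadjusted p under 0.05, against 4 in limma. Over all probe sets, the 16 past the threshold became 40 after cyclic loess, 90 with LIRKO 2 and LIRKO 3 left out, and 0 in the methods' t-test once adjusted by Benjamini-Hochberg (728 at an unadjusted p under 0.05). Leaving out 1 array gave 2 (LIRKO 2) to 6095 (LIRKO 1), with 5 without Flox 1 and 3 without Flox 2, Flox 3 or LIRKO 3. Blocking by replicate number gave 11 probe sets and 0 members. Deviations of arrays with the same number correlated at 0.32, 0.40 and 0.09 and those of other pairs at -0.37 to 0.17. The values of 0.32 and 0.40 were the highest of all pairs, whereas that of 0.09 was below the 0.17 of a pair with different numbers. They do not settle whether the arrays are paired. The sample labels give no pairing, and the main fit did not block by number. The filter on dim probe sets left 8 of the 11.

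*Atf4* turned to 0.31 after cyclic loess and to 0.21 when quantile normalization was renewed. With LIRKO 1 as the 1 LIRKO array, 4 probe sets turned sign, to -0.12 and -0.14 for *Asns* 161221_f_at and 95133_at, -0.13 for *Atf3* 104156_r_at and 0.34 for *Herpud1*. None of these values passed in either direction, and the cause was not tested. All other member values kept their sign under each alternative run.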

Other observations

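*Ddit4*, which encodes REDD1, an inhibitor of mTORC1 that ATF4 and glucocorticoids induce, was the gene of the ATF4 target list that varied most between pools of 1 group. It read 8.34, 7.17 and 6.57 on Flox 1, Flox 2 and Flox 3 and 9.14, 7.99 and 5.93 on LIRKO 1, LIRKO 2 and LIRKO 3, and its log2 fold change of 0.33 had a standard error of 0.83 (adjusted p = 0.808). *Gadd45g*, of the same family as *Gadd45a*, also spread widely, at 7.89, 7.15 and 8.49 in Flox and 8.39, 7.86 and 6.75 in LIRKO.

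*Cebpb* and *Cebpd*, transcription factors that dimerize with ATF4 or CHOP, read highest on LIRKO 1. *Cebpb* read 10.57, 10.17 and 10.09 in Flox and 10.86, 9.90 and 9.54 in LIRKO, and *Cebpd* read 7.30, 7.34 and 6.98 in Flox and 7.93, 7.24 and 7.29 in LIRKO. Neither passed (adjusted p = 0.749 and 0.426). *Atf6*, the sensor of the third branch, read 6.90, 6.97 and 6.84 in Flox and 7.27, 5.88 and 6.14 in LIRKO, so that LIRKO 1 was the highest array and LIRKO 2 the lowest (adjusted p = 0.401). These genes were chosen after their values were seen.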
